A study of Mus musculus with 12 samples.

Results

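The 10 genes described here encode the acetylcholine receptor of the neuromuscular junction, proteins that assemble and anchor it, and a protein that anchors acetylcholinesterase. The receptor subunits are Chrna1, Chrnb1, Chrnd, Chrne and Chrng. The assembly genes are the agrin receptor Lrp4, the kinase Musk with its activator Dok7, and the scaffold Rapsn. Colq encodes the collagen tail of acetylcholinesterase. These genes were chosen by name, as 10 of the 55416 gene identifiers counted in each library, and each symbol matched 1 identifier. RNA sequencing compared the gastrocnemius, a calf muscle, of 3 male BALB/c mice carrying CT-26 tumours with that of 3 male BALB/c controls that had no tumour injection, and 6 further libraries came from the hypothalamus. CT-26 is a mouse colon carcinoma line; per the labels its cells were injected under the skin of the abdomen at 7 weeks of age, the tumour-bearing mice were 7 to 10% lighter than healthy mice by day 10, and their tissue was taken on day 25. All mice are labelled as 7 weeks old, and when the control tissue was collected is not given in the sources used here. Neither group is labelled with a genetic change, and each library is labelled with 1 mouse.

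At the junction, acetylcholine released by the motor nerve opens a receptor made of 5 subunits, in which the fetal gamma subunit is replaced by epsilon as the junction matures. Nerve-derived agrin binds Lrp4, Lrp4 activates Musk with the help of Dok7, and this pathway gathers receptors on the scaffold rapsyn, the product of Rapsn. In adult fibres these genes are transcribed mainly in the few nuclei under the nerve ending, and loss of innervation is known to reactivate several receptor genes along the whole fibre.

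The gastrocnemius libraries held 26015741 to 42771331 expected counts each. Replicates differed by far more than sampling noise, with a chi-square per gene of 20.0 to 160.1 between libraries of a group. The 8 skeletal muscle markers summed to between 70120 and 111700 TPM (transcript abundance per length, scaled to the same sum in every library) in CT-26 and between 77130 and 108400 TPM in control gastrocnemius, and 1 of them rose and 2 fell. In this paragraph rose and fell mean called by the edgeR test described below, at an adjusted p under 0.05. That test called 19.6% of all genes as higher and 18.3% as lower. Markers of other cells moved between the groups. Of 10 Schwann cell markers 7 fell and Ngfr rose (summed level 27.3 to 36.6 TPM with CT-26, 53.9 to 60.3 TPM in controls), and of 8 fibroblast markers 7 fell (259.0 to 284.4 TPM with CT-26, 332.2 to 523.3 TPM in controls). Of 7 adipocyte markers 6 fell (159.4 to 200.4 TPM with CT-26, 239.9 to 254.9 TPM in controls). Of 8 satellite cell markers 2 rose and 3 fell (78.8 to 91.0 TPM with CT-26, 29.0 to 37.7 TPM in controls). Cdh15 rose 3.63-fold and Itga7 2.09-fold, Chodl, Calcr and Heyl fell, and Pax7, Myf5 and Vcam1 were not called. The higher sum therefore does not stand for the satellite cell list as a whole. All 7 tested of 8 neutrophil markers rose, with a summed level of 540.9, 79.4 and 72.4 TPM in CT-26 mice 1, 2 and 3 and 0.79 to 1.24 TPM in controls. Of 8 neuron markers 1 was tested, and it was not called. The 8 summed to 1.13 to 2.13 TPM with CT-26 and 1.34 to 1.86 TPM in controls. Chat, the gene of the acetylcholine-making enzyme, was at 0 in all 6 gastrocnemius libraries. The part of these other cells in the results below was not tested. In bulk muscle, fewer nuclei expressing a gene and less RNA per nucleus cannot be told apart.

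In the CT-26 gastrocnemius the junction genes moved in opposite directions. Chrna1, Chrnb1 and Rapsn rose 1.75- to 2.40-fold, while Chrne, Lrp4 and Colq fell, and Chrnd, Musk and Dok7 did not pass the test. These calls come from edgeR's quasi-likelihood test on counts with TMM scaling, fitted over 14265 genes with Benjamini-Hochberg adjustment, and called genes had an adjusted p under 0.05. That test called 38.0% of all genes, 19.6% as higher and 18.3% as lower. Of the 10 junction genes 9 were tested, each with at least 36 counts in every gastrocnemius library; Chrng was below the count minimum. Among all calls, 51.7% were higher under TMM, 70.4% when libraries were scaled by their totals alone and 85.3% on the log2(TPM + 0.5) scale. The median log2 change of all genes was -0.0015 under TMM, 0.20 with library totals and 0.39 on the TPM scale, and changes are also given relative to that median where the scaling mattered.

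**Figure D1:**
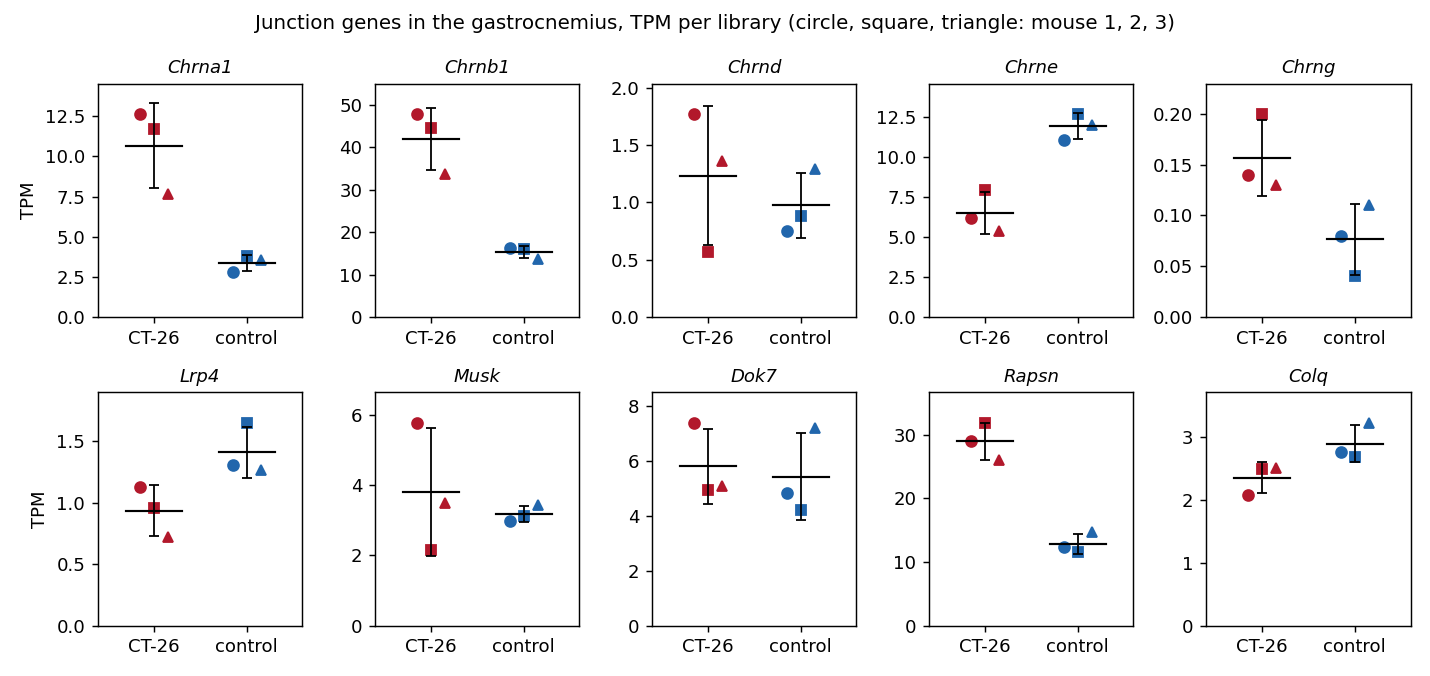
TPM of the 10 junction genes in each gastrocnemius library (y axis, from 0, its range set per gene) for CT-26 mice (red, left) and control mice (blue, right); lines and bars are the mean ± SD of 3 mice and the symbols mark mouse 1, 2 and 3. Chrna1, Chrnb1 and Rapsn lie above control in all 3 CT-26 mice, as does Chrng on 3 to 9 counts per library, Chrne, Lrp4 and Colq lie below, and Chrnd, Musk and Dok7 overlap.

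Among the receptor subunits, Chrna1 (chr2:73563215-73580338 on GRCm38, minus strand) encodes the alpha subunit, which carries most of the acetylcholine binding site. Its level was 12.6, 11.7 and 7.64 TPM in the CT-26 mice and 2.82, 3.77 and 3.56 TPM in the control mice, from 985 to 1861 counts per CT-26 library and 330 to 508 per control library. The lowest CT-26 library was above the highest control library. On the scaled count scale Chrna1 averaged 37.7 ± 7.56 CPM (counts scaled to library size after TMM) in CT-26 muscle, against 15.7 ± 3.20 CPM in control muscle (SD, n = 3 each), a 2.40-fold rise (log2 1.26 ± 0.20 SE, edgeR adjusted p = 0.002258).

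Chrnb1 (chr11:69784036-69795943, minus strand), the beta subunit, had 47.9, 44.5 and 33.8 TPM with CT-26 and 16.2, 16.1 and 13.7 TPM in controls. The groups were far apart, and the 3 controls lay between 29.3 and 30.02 CPM. Chrnb1 rose 2.17-fold, with 64.3 ± 8.69 CPM in CT-26 muscle, against 29.7 ± 0.350 CPM in control muscle (SD, n = 3 each; log2 1.12 ± 0.13 SE, edgeR adjusted p = 0.000657).

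Chrne (chr11:70614883-70619216, minus strand), the adult epsilon subunit, went the other way. It was at 6.19, 7.91 and 5.38 TPM in CT-26 muscle and 11.1, 12.7 and 12.0 TPM in control muscle, without overlap. Its counts were 170 to 211 per CT-26 library and 351 to 402 per control library. Chrne was 2.57-fold lower, with 5.44 ± 1.196 CPM in CT-26 muscle, against 13.9 ± 0.947 CPM in control muscle (SD, n = 3 each; log2 -1.36 ± 0.17 SE, edgeR adjusted p = 0.0009461). On the log2(TPM + 0.5) scale its change was -0.84, or -1.23 relative to the median of all genes, and it was still called (limma adjusted p = 0.005246). The gene 4930544D05Rik lies within Chrne on the opposite strand; it had 9 to 29 counts per gastrocnemius library, and the strand setting of the counting is not given in the sources used here.

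Chrnd (chr1:87190607-87200070, plus strand), the delta subunit, had 1.77, 0.57 and 1.36 TPM in CT-26 mice 1, 2 and 3 and 0.75, 0.88 and 1.29 TPM in control mice 1, 2 and 3, from 36 to 160 counts per library. The ranges overlapped, and Chrnd did not pass the test (2.64 ± 1.09 CPM with CT-26, 2.86 ± 1.22 CPM in controls; SD, n = 3 each; log2 -0.10 ± 0.38 SE, edgeR adjusted p = 0.8604). Its sign turned positive under the other scalings (log2 0.14 with library totals, 0.18 with TPM; -0.06 and -0.20 relative to the median of all genes) and when CT-26 mouse 2 (log2 0.18) or control mouse 3 (log2 0.30) was left out, without a call.

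Chrng (chr1:87204657-87212694, plus strand), the fetal gamma subunit, lies 4586 bases beyond Chrnd on the same strand. It had 5, 5 and 9 counts in CT-26 muscle, against 5, 3 and 5 counts in control muscle. Fitted without a count minimum it was at log2 0.25 ± 0.63 SE (edgeR adjusted p = 0.8173), so no change in Chrng was detectable at this depth. Its TPM did not overlap between the groups (0.13 to 0.20 with CT-26, 0.04 to 0.11 in controls) while its CPM did (0.106 to 0.269 with CT-26, 0.110 to 0.183 in controls), and the transcript length that RSEM assigned to it ran from 1269 to 2780 bases between libraries.

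Promoter sequence was at hand for 6 of the 10 genes, from RefSeq on GRCm38.p6. The stretches upstream of the start are shown for the 2 receptor genes that rose and the 1 that fell, because receptor gene promoters are known to be bound by myogenic factors at E-boxes (CANNTG, which includes CAGCTG), and that of Chrne by the Ets factor GABP at an N-box (CCGGAA). Bases are given 5′ to 3′ on the gene's strand and end before the first annotated transcribed base, and capitals mark every E-box and N-box on either strand.
Chrna1, chr2:73580339-73580588, minus strand: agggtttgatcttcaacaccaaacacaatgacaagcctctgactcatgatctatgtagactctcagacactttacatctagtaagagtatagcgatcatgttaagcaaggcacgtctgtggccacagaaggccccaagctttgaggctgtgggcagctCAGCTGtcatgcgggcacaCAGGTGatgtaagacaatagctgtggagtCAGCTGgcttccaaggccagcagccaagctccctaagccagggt
Chrnb1, chr11:69795944-69796187, minus strand: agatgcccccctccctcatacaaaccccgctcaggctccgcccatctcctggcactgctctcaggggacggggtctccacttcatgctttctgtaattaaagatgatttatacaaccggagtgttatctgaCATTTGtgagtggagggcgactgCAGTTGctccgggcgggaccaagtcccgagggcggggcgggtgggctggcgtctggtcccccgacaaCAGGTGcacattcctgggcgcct
Chrne, chr11:70619217-70619444, minus strand: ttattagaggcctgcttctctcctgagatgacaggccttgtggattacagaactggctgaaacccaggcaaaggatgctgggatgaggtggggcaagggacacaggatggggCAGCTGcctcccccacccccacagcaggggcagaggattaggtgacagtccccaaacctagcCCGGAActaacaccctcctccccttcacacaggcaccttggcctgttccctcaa
Both rising genes held 3 E-boxes and no N-box here, and Chrne held 1 of each. The E-boxes of Chrna1 lie at -92, -73 and -44 from the RefSeq start and 2 of them read CAGCTG; the E-box of Chrne lies at -138 and its N-box at -76. Over the whole 300-base RefSeq window, 72.3% of 32851 promoters hold at least 1 CANNTG, 16.3% hold CAGCTG and 14.9% hold CCGGAA, counting both strands. The windows of Chrng and Musk also held 3 E-boxes each, and the 2 windows of Dok7 held 1 and 0; 39.6% of all windows hold 2 or more. Such matches describe the letters only.

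The subunits were also compared within each library, where scaling between libraries plays no part. Of the summed TPM of the 5 subunits, Chrne made up 9.02, 12.2 and 11.1% in the CT-26 mice and 35.7, 37.9 and 39.2% in the control mice. Chrnb1 held 69.4 ± 0.761% with CT-26 and 48.4 ± 3.94% in controls, and Chrna1 17.4 ± 1.43% with CT-26 and 10.7 ± 1.36% in controls (SD, n = 3 each). The sum itself, unlike the shares, depends on scaling between libraries. It was 60.6 ± 10.8 TPM with CT-26 and 31.7 ± 1.56 TPM in controls (SD, n = 3 each). On the log2(TPM + 0.5) scale the median log2 change of all genes was 0.39. The log2 ratio of Chrne to Chrnb1 TPM was -2.95, -2.49 and -2.65 in CT-26 and -0.55, -0.35 and -0.19 in control muscle. The groups differed by -2.34, with no overlap (two-sided exact permutation test, p = 0.1, the smallest that 3 against 3 allows). Chrng made up 2.21 to 2.47% of Chrng plus Chrne TPM with CT-26 and 0.314 to 0.907% in controls (exact permutation test, two-sided, p = 0.1), a share that rests on the few Chrng counts above and on the lower Chrne level.

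**Figure D2:**
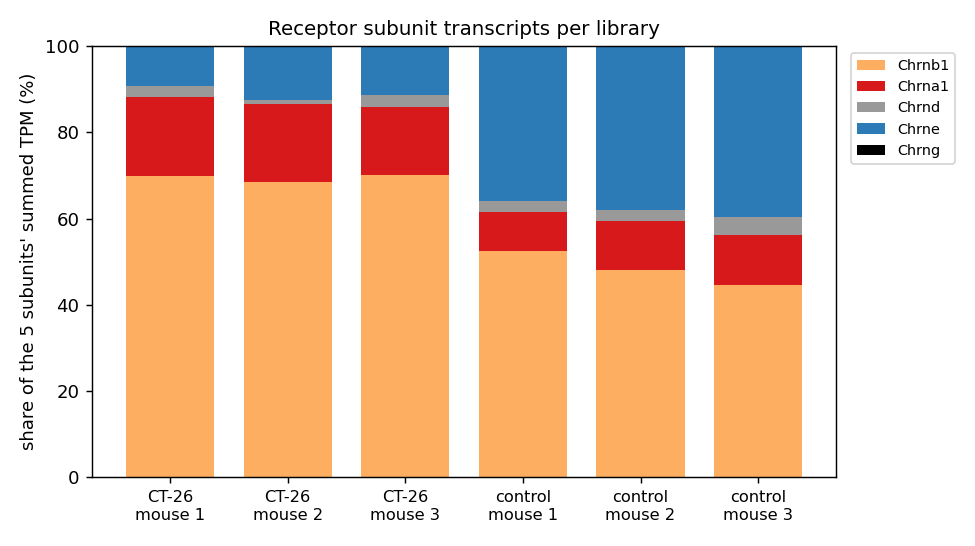
Share of each receptor subunit in the summed TPM of the 5 subunits (y axis, percent) in the 3 CT-26 and the 3 control gastrocnemius libraries. The blue Chrne segment takes 9.02 to 12.2% of the bar in CT-26 mice and 35.7 to 39.2% in control mice; Chrng is too small to see.

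Of Lrp4, Musk and Dok7, Lrp4 fell and the other two did not pass the test. Lrp4 (chr2:91457511-91513779, plus strand), the receptor for agrin, had 1.13, 0.96 and 0.72 TPM with CT-26 and 1.31, 1.65 and 1.27 TPM in controls. Every CT-26 library was below every control library. Lrp4 was 1.96-fold lower (5.88 ± 0.878 CPM in CT-26 muscle, against 11.5 ± 1.51 CPM in control muscle; SD, n = 3 each; log2 -0.97 ± 0.17 SE, edgeR adjusted p = 0.003175). With log2(TPM + 0.5) its change was -0.42, or -0.80 relative to the median of all genes, and the call was lost (limma adjusted p = 0.1212). At such low TPM the added 0.5 itself also shrinks a log2 change.

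Musk (chr4:58285960-58374303, plus strand), the kinase that Lrp4 activates, had 5.77, 2.15 and 3.48 TPM in CT-26 mice 1, 2 and 3 and 2.99, 3.13 and 3.42 TPM in the control mice. The CT-26 libraries lay on both sides of the controls. It was not called (9.36 ± 3.78 CPM with CT-26, 10.5 ± 1.79 CPM in controls; SD, n = 3 each; log2 -0.16 ± 0.28 SE, edgeR adjusted p = 0.6704), and its sign turned without CT-26 mouse 2 (log2 0.08). It was also above 0 with library totals (log2 0.06) and with TPM (log2 0.14), scalings under which the median of all genes was higher. Relative to that median it was at -0.14 and -0.25.

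Dok7 (chr5:35056766-35087839, plus strand), the cytoplasmic activator of Musk, had 7.38, 4.94 and 5.08 TPM with CT-26 and 4.84, 4.22 and 7.20 TPM in controls, with 1 high library in each group. It did not pass (11.6 ± 1.53 CPM with CT-26, 14.0 ± 4.51 CPM in controls; SD, n = 3 each; log2 -0.27 ± 0.22 SE, edgeR adjusted p = 0.3602), and its sign turned without control mouse 3 (log2 0.02). With TPM it was at log2 0.10, or -0.28 relative to the median of all genes.

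Rapsn (chr2:91035620-91045729, plus strand), whose product holds receptors in clusters, followed the alpha and beta subunits. Its level was 29.0, 31.9 and 25.97 TPM in CT-26 mice and 12.4, 11.5 and 14.6 TPM in control mice, with no overlap. Rapsn rose 1.75-fold (32.2 ± 4.71 CPM in CT-26 muscle, against 18.4 ± 3.94 CPM in control muscle; SD, n = 3 each; log2 0.81 ± 0.18 SE, edgeR adjusted p = 0.008833). Gm13778, which overlaps it on the opposite strand, had 2 to 9 counts per gastrocnemius library.

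Colq (chr14:31523082-31591343, minus strand) anchors acetylcholinesterase in the synaptic cleft. It had 2.07, 2.48 and 2.5 TPM with CT-26 and 2.76, 2.68 and 3.22 TPM in controls, with a narrow gap between the groups. The fall of Colq was the smallest of the called changes among the 9 tested junction genes (5.33 ± 1.10 CPM in CT-26 muscle, against 8.44 ± 1.62 CPM in control muscle; SD, n = 3 each; log2 -0.67 ± 0.21 SE, edgeR adjusted p = 0.03444). The call was lost with library totals (log2 -0.46) and with TPM (log2 -0.25), although relative to the median of all genes these were -0.66 and -0.63. It was also lost when CT-26 mouse 1 (log2 -0.50, adjusted p = 0.09416) or control mouse 3 (log2 -0.50, adjusted p = 0.1139) was left out. Without control mouse 1 or 2 the change was log2 -0.76 and -0.75, no smaller than with all 6 libraries, but the adjusted p was 0.0552 and 0.05675.

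**Figure D3:**
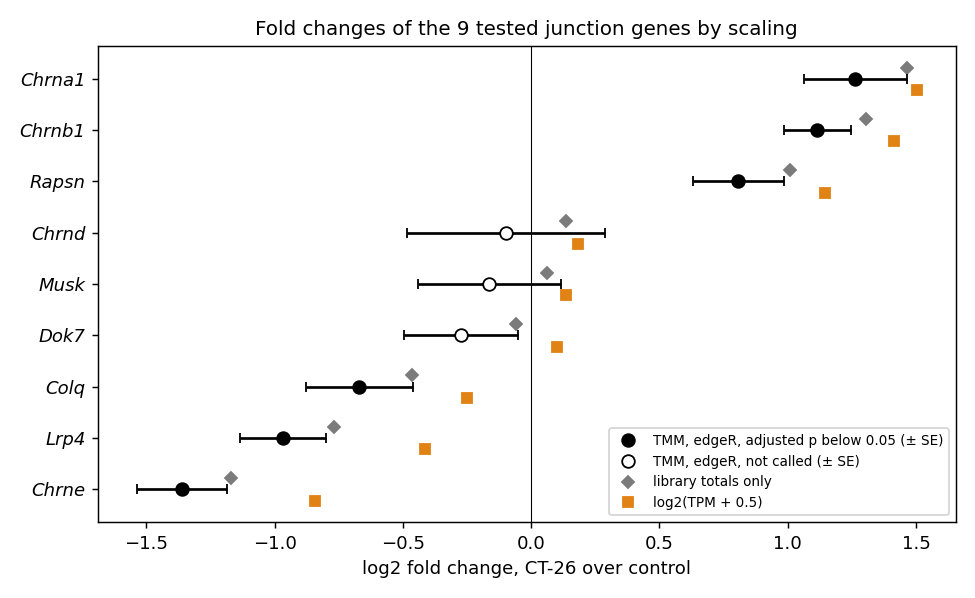
Log2 fold change of CT-26 over control gastrocnemius (x axis) for the 9 tested genes: circles are edgeR estimates with TMM ± SE, filled where called; diamonds use library totals and squares the log2(TPM + 0.5) scale. Both alternatives sit to the right of the circles, and Chrna1, Chrnb1 and Rapsn stay above 0 and Chrne, Lrp4 and Colq below 0 under all 3.

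Counted together, 3 of the 9 tested genes rose and 3 fell, against 19.6% and 18.3% of all genes. Their median log2 change was -0.16, beside -0.0015 for all genes. In 6 of the 9 the CT-26 and control libraries did not overlap, against 51.7% of all genes. Chrna1, Chrnb1, Rapsn and Chrne kept their calls in each of 13 alternative analyses, which included DESeq2, other scalings and filters and each library left out.

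**Figure D4:**
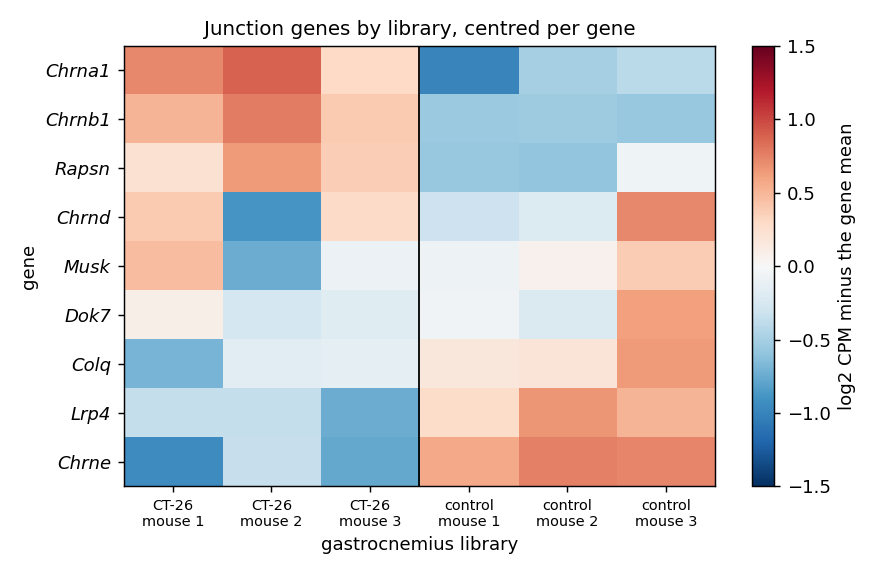
Log2 CPM of the 9 tested genes minus each gene's mean over the 6 gastrocnemius libraries (colour, red above and blue below the mean); rows are genes ordered by fold change and columns are CT-26 then control libraries. Chrnd and Musk are lowest in CT-26 mouse 2, at -0.89 and -0.75, while Chrna1, Chrnb1 and Rapsn are highest there, at 0.88, 0.76 and 0.64.

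The order of the levels differed between the groups. Per length, Chrnb1 and Rapsn were the most abundant of the 10 in both groups, separate in CT-26 muscle and overlapping in control muscle. In CT-26 muscle they were followed by Chrna1 (10.7 ± 2.66 TPM), Chrne (6.49 ± 1.29 TPM), Dok7 (5.80 ± 1.37 TPM) and Musk (3.80 ± 1.83 TPM; SD, n = 3), neighbours whose ranges overlapped. In control muscle Chrne (11.9 ± 0.815 TPM) came next, overlapping Rapsn (12.8 ± 1.61 TPM), and stood clear of Dok7 (5.42 ± 1.57 TPM) and Chrna1 (3.38 ± 0.499 TPM; SD, n = 3). Lrp4, Chrnd and Chrng were the 3 lowest in both groups.

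The hypothalamus gives a level outside muscle. There Dok7 was at 7.18 to 8.44 TPM and Lrp4 at 1.86 to 2.52 TPM over the 6 libraries, against 4.22 to 7.38 and 0.72 to 1.65 TPM in the 6 gastrocnemius libraries. Chrna1, Chrnb1, Chrne, Musk, Rapsn and Colq did not exceed 0.91 TPM in the hypothalamus. Chrnd had 1 count in 1 of the 6 libraries, and Chrng had none in any, which allows up to 3 counts per library, or 0.0571 to 0.110 CPM of the library totals. No difference between CT-26 and control was tested in the hypothalamus.

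Most other genes of the junction were not called. Of 40 listed genes of the agrin, neuregulin and postsynaptic pathways 38 were tested, and 26 of these were not called. In this list 1 rose and 11 fell, where 19.6% of all genes rose and 18.3% fell. The list's median log2 change was -0.22, beside -0.0015 for all genes. The 12 calls of 38 are near the background of 38.0% called. With library totals the calls were 3 higher and 8 lower, and with limma on log2(TPM + 0.5), which also has its own filter, 5 higher and 5 lower; among calls over all genes 70.4% and 85.3% were higher in these analyses. Ache, which encodes the acetylcholinesterase that Colq anchors, had 7.60, 11.3 and 7.62 CPM in CT-26 muscle, against 21.9, 26.5 and 21.8 CPM in control muscle. The groups did not overlap, and Ache was 2.65-fold lower (log2 -1.41 ± 0.18 SE, edgeR adjusted p = 0.001028), called under every alternative run. Agrn, the gene of agrin, had 9.26 to 11.1 CPM with CT-26 and 9.71 to 11.7 CPM in controls and was not called (log2 -0.07 ± 0.14 SE, edgeR adjusted p = 0.689; above 0 with library totals and TPM, but at -0.07 and 0.0078 relative to the median of all genes). The 11 that fell included nidogens and laminin chains of the basement membrane. Nid1 fell 2.74-fold, Nid2 2.59-fold and Lama4 2.31-fold, in libraries where 7 of 8 fibroblast markers also fell. Pak1, a kinase of receptor clustering, was 2.86-fold lower at 24.4 ± 5.57 CPM in CT-26 muscle, against 69.8 ± 9.64 CPM in control muscle (SD, n = 3 each). Phldb2, whose product marks podosomes of the postsynaptic membrane, was 2.20-fold lower (edgeR adjusted p = 0.004379; limma on TPM, adjusted p = 0.05128). The transcription factor gene Gabpa, of the N-box, was not called (log2 0.25 ± 0.13 SE, edgeR adjusted p = 0.1647), nor was Etv5 (log2 -0.25 ± 0.18 SE, adjusted p = 0.3137); these 2 were chosen after their values were seen.

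Genes known to respond to denervation or to regulate the receptor genes included large rises. Of 16 listed, 15 were tested; 8 rose and Hdac4 and Myod1 fell, where 19.6% of all genes rose and 18.3% fell, and the list's median was log2 0.92, beside -0.0015 for all genes. Without CT-26 mouse 1 the list held 5 calls, and without control mouse 1 or 2 it held 6. Calls over all genes were 4179, 3547 and 3766 in these 3 fits, against 5417 with all 6 libraries. Like the other lists, it was chosen with earlier results of these data known, so these shares are no independent test. Chrna9, a nicotinic receptor subunit best known from the inner ear, had 21.2, 15.7 and 13.4 CPM in CT-26 muscle, against 0.511, 0.770 and 0.960 CPM in control muscle. Every CT-26 library was far above every control library, a 22.4-fold rise (log2 4.48 ± 0.27 SE, edgeR adjusted p = 8.791e-05). The cell cycle inhibitor Cdkn1a rose 9.38-fold, the transcription factor Runx1 4.13-fold and the stress gene Gadd45a 3.44-fold, each called under every alternative run. Myh8, the perinatal myosin heavy chain, rose 1.90-fold and the myogenic factor Myf6 1.48-fold. The call of Myh8 was lost when CT-26 mouse 1 was left out (adjusted p = 0.05188) or when control mouse 2 was (0.05631), and that of Myf6 without control mouse 1 (adjusted p = 0.07583) or 3 (adjusted p = 0.06303). Myh3, the embryonic myosin heavy chain, named after its values were seen, also rose (edgeR adjusted p = 0.02075). Myh3 spread widely with CT-26, at 30.15 ± 28.2 CPM against 5.07 ± 0.903 CPM in controls (SD, n = 3 each), and its groups overlapped.

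Myog, the E-box factor that rises after nerve loss, had 22.4, 4.995 and 24.2 CPM in CT-26 mice 1, 2 and 3 and 5.51, 13.3 and 4.23 CPM in control mice 1, 2 and 3. CT-26 mouse 2 lay among the controls, and Myog was not called (log2 1.17 ± 0.59 SE, edgeR adjusted p = 0.1486) except without that mouse (log2 1.596, adjusted p = 0.01588). Myod1, another E-box factor, was 1.93-fold lower (11.2 ± 4.19 CPM in CT-26 muscle, against 21.6 ± 5.31 CPM in control muscle; SD, n = 3 each; edgeR adjusted p = 0.03745), and Hdac4, a repressor whose product carries the denervation signal to muscle genes, 1.38-fold lower (adjusted p = 0.02597). Both calls were lost with library totals (adjusted p = 0.06765 for Myod1 and 0.139 for Hdac4) and with TPM (0.1124 and 0.7787), while relative to the median of all genes Myod1 was at log2 -0.96 and -0.97 there and Hdac4 at -0.47 and -0.45, close to the -0.95 and -0.47 found with TMM. Myod1 also lost its call when CT-26 mouse 1 (0.05955), control mouse 1 (0.1081) or control mouse 2 (0.1089) was left out, and Hdac4 without CT-26 mouse 1 or 3 (0.08171 and 0.05764) or control mouse 2 or 3 (0.05549 and 0.08969). Ncam1, an adhesion molecule that spreads along denervated fibres, had 8.20, 4.96 and 5.89 CPM in CT-26 muscle, against 4.09, 4.44 and 4.97 CPM in control muscle. Its ranges overlapped by a little and it was not called (log2 0.50 ± 0.21 SE, edgeR adjusted p = 0.08944), but it was called when CT-26 mouse 2 was left out (log2 0.64, adjusted p = 0.03469), with library totals (log2 0.72) and with TPM (log2 0.83). Relative to the median of all genes the values with these scalings were 0.52 and 0.44, against 0.51 with TMM. Dach2, a repressor of Myog, was below the count minimum, at 0 to 0.0598 CPM with CT-26 and 0.0365 to 0.284 CPM in controls.

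**Figure D5:**
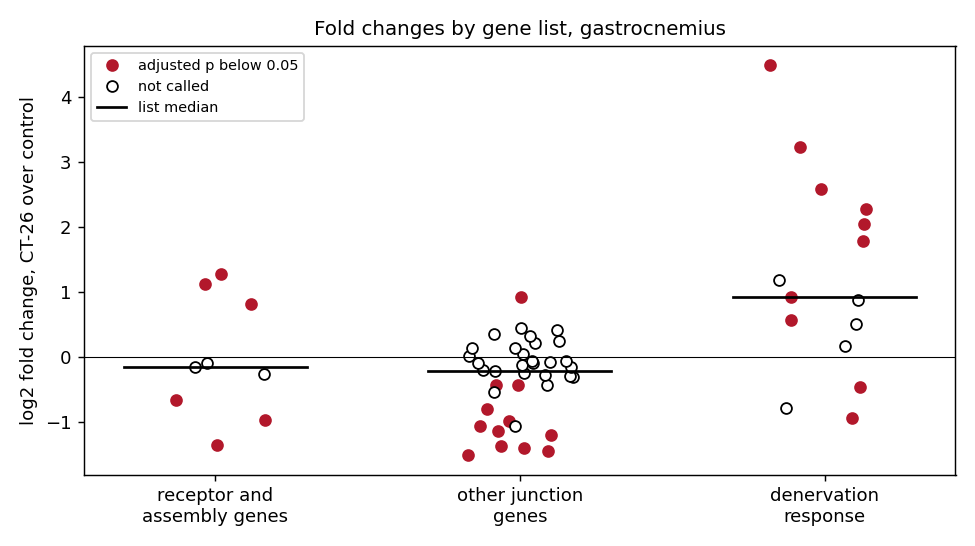
Log2 fold change of CT-26 over control gastrocnemius (y axis) for the tested genes of 3 lists, each point a gene, red where called and open where not, with the list median as a line. The points labelled receptor and assembly genes are the 9 tested junction genes, Colq included, and run from -1.36 to 1.26. The other junction genes run from -1.52 upward and the denervation response genes from -0.95 to 4.48.

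Some genes shared the pattern of a junction gene closely over the 6 gastrocnemius libraries, as measured by the root mean square difference of log2 CPM centred per gene. The 3 closest to Chrna1 were Clip1 (0.091), Arl8a (0.114) and Tbc1d17 (0.133), with changes of log2 1.204, 1.17 and 1.17. Those closest to Chrne were Hs6st2 (0.084), Rom1 (0.087) and Smtn (0.093), at log2 -1.36, -1.44 and -1.38. Musk was closest to Pde10a (0.081), Kcnma1 (0.099) and Vim (0.111). With 10879 candidates and 6 libraries in 2 groups, this describes likeness only.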

How the data were processed

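Per the labels' protocols, strand-marking MGIEasy libraries were sequenced from both ends (100 bp). The submitters' processing notes name STAR 2.7.9a, RSEM 1.3.3, Trim Galore 0.6.6 and the build GRCm38. The deposited files hold RSEM expected counts, TPM, FPKM and a gene length averaged over transcripts; the deposited FPKM values were left aside. The annotation release and strand setting are not given in the sources used here. Gene names and GRCm38 positions came from GENCODE M21 (52083 of 55416 identifiers named).

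Expected counts were rounded and the 6 gastrocnemius libraries fitted with edgeR 4.0.16 in R 4.3.3: filterByExpr, TMM, glmQLFit and glmQLFTest without covariates, Benjamini-Hochberg adjustment over 14265 genes. Standard errors came from the test statistic. The fit was tested on simulated data. Alternatives were DESeq2 1.42.0, RLE factors, library totals, no filter, 1 CPM in 3 libraries, limma 3.58.1 on log2(TPM + 0.5) for genes with at least 1 TPM in 3 libraries, each library left out and a replicate block. Ratios within libraries were compared with two-sided exact permutation tests (scipy 1.17.1). Groups of 3 limit precision, and the floor of 3 counts covers counting error only.

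The members and lists were chosen with earlier results of these data known. The named genes were all members, up to 6 called genes per list and direction by p, 6 fixed genes, and the 3 genes most like Chrna1, Chrne and Musk in pattern, out of 10879 candidates. Gabpa, Etv5, Myh3, the markers Ngfr and Chat and the satellite cell markers fall outside this rule and were named after their values were seen. Some genes of the lists are counted but not reported here by name.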

Additional observations from a re-analysis of the deposited data

How the results depend on the processing

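Of 117 alternative values for the 9 tested genes, 101 kept the direction and the side of the threshold, 7 lost the call (6 for Colq, 1 for Lrp4) and 9 changed sign, all for genes not called. Chrnd was at 0.14 with library totals, 0.18 with TPM and -0.32 to 0.30 with 1 library left out (0.18 without CT-26 mouse 2, 0.30 without control mouse 3). Musk was at 0.061 with library totals, 0.14 with TPM and -0.51 to 0.076 with 1 library left out. Dok7 was at 0.10 with TPM and -0.44 to 0.017 with 1 library left out. Agrn was at 0.13 with library totals and 0.39 with TPM. The number of junction genes called was 4 with TPM, 5 with library totals and 5 or 6 with 1 library left out; that of other junction genes was 9 to 14, and of denervation response genes 5 to 12, with 1 library left out. Over all genes, calls ran from 3547 (without control mouse 1) to 5450 with 1 library left out, against 5417 with all 6; the cause was not tested. Within-library measures kept their direction: the Chrne to Chrnb1 difference was -2.44 to -2.21 and the Chrng share difference 1.53 to 1.83 percentage points with 1 library left out, and -2.48 and 2.25 from CPM. Nothing in the labels pairs mice across the groups. Deviations of same-numbered mice correlated at -0.06, 0.18 and 0.26, and those of differently numbered mice at -0.25 to 0.10. With the replicate block 5721 genes were called, the 6 junction genes, 12 other junction genes and 10 denervation response genes as many as without it, and the ratio difference was -2.34. CT-26 mice 2 and 3 correlated best with the control mouse of their own number, and CT-26 mouse 1 did not. Whether mice of the same number were handled together was not tested. Myh8 was below the TPM minimum and has no value on that scale. Low counts limit Chrng, and Chrnd in CT-26 mouse 2 rests on 36 counts.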

Other observations

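Within the CT-26 group the junction genes did not vary together. Chrnd, Musk and Dok7 were lowest in CT-26 mouse 2 (1.39, 5.73 and 10.4 CPM) and highest in CT-26 mouse 1 (3.39, 13.3 and 13.3 CPM). On the CPM scale Chrna1, Chrnb1, Rapsn and Chrne were instead highest in CT-26 mouse 2 (44.3, 74.0, 37.4 and 6.78 CPM). On the TPM scale Rapsn and Chrne stayed highest in that mouse (31.9 and 7.91 TPM). Chrna1 and Chrnb1 were then highest in CT-26 mouse 1 (12.6 and 47.9 TPM, against 11.7 and 44.5 TPM in mouse 2). Among controls, mouse 3 had the highest CPM for 6 of the 9 tested genes and mouse 1 the lowest for 6. These control ranks differ in part with TPM. Myog was also lowest in CT-26 mouse 2, at 4.995 CPM, against 22.4 and 24.2 CPM in the other two CT-26 mice. These are values of 3 mice per group and were not tested.

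Transcript length as estimated by RSEM, which moves with the mix of isoforms, was 1520 to 1536 bases for Rapsn with CT-26 and 1497 to 1516 bases in controls, without overlap. For Chrne it was 1170 to 1265 bases with CT-26 and 1187 to 1365 bases in controls, overlapping. The lengths of all the other junction genes overlapped as well, and the difference for Rapsn was not tested. The TPM of Chrne depends on its estimated transcript length and its CPM does not.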
